A study of Mus musculus with 2 samples.

Results

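Of the 31053 genes counted in lung endothelial cells, 7 genes of extracellular proteolysis were examined. They were chosen by name, with earlier results of these data known. They comprised the secreted proteases Adamts1, Adamts4 and Adamts9, the membrane-bound protease Mmp14, and the inhibitors Timp1, Timp2 and Timp3. All 7 had unique molecular identifiers (UMIs, the tags that mark single captured RNA molecules) in both libraries, although Adamts4 and Timp1 were close to the limit of detection. The control library came from the lungs of 2 wild-type C57BL/6 mice, pooled, 6 h after injection of phosphate-buffered saline (PBS) into the tail vein. The metastatic library came from 2 wild-type C57BL/6 mice, pooled, 6 h after each received 200000 cells of the mouse melanoma line B16-F10 by the same route. The study used male C57BL/6 mice. It gives an age of 8 to 12 weeks for its mice as a whole, and a narrower range within that for these injections. Live lung cells stained for PECAM1, an endothelial surface protein, were sorted without a gate against blood cells and sequenced as single cells. The comparison asked how lung endothelium had altered its proteases and their inhibitors soon after melanoma cells arrived.

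The ADAMTS enzymes are secreted zinc metalloproteases that carry thrombospondin repeats and cut large proteoglycans such as versican and aggrecan in the matrix around vessels. Mmp14 encodes a matrix metalloproteinase anchored in the cell membrane, which endothelial cells use to degrade matrix at their surface and to activate the secreted gelatinase Mmp2. The TIMPs are small secreted proteins that inhibit metalloproteases by occupying the active site, and not every TIMP inhibits every enzyme named here. Timp3 binds to the matrix and inhibits ADAMTS and ADAM enzymes as well as the matrix metalloproteinases, and Timp2 also serves as the bridge by which Mmp14 activates Mmp2.

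The catalytic site is shown as the coding bases of the stretch that holds the zinc, because it is what the 4 proteases share. Each stretch was read from the GENCODE M21 transcript with the longest coding sequence, and the codons of the zinc-binding histidines are in capitals.
Adamts1, residues 402 to 412 of 968: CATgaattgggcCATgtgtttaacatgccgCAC
Adamts4, residues 369 to 379 of 845: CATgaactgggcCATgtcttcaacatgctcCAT
Adamts9, residues 434 to 444 of 1931: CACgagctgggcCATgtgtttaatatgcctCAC
Mmp14, residues 239 to 249 of 582: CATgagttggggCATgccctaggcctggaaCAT
Each protease held 1 such stretch of 33 bases. Adamts1 shared 28 of the 33 bases with Adamts9 and 27 with Adamts4, whereas Mmp14 shared 18 to 21 bases with the 3 ADAMTS genes. The coding sequences of Timp1, Timp2 and Timp3, of 205 to 220 residues, held no such stretch.

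On GRCm38 the genes lie apart from each other. Adamts1 (ENSMUSG00000022893) lies at chr16:85793827-85803113 on the minus strand, and its relative Adamts5 lies 53059 bases from it, at the nearest ends, on the same strand. Adamts4 (ENSMUSG00000006403) lies at chr1:171250421-171260637 on the plus strand, Adamts9 (ENSMUSG00000030022) at chr6:92772699-92943492 on the minus strand and Mmp14 (ENSMUSG00000000957) at chr14:54431612-54445364 on the plus strand. Timp1 (ENSMUSG00000001131) lies at chrX:20870166-20874735 on the plus strand, within the span of the synapsin gene Syn1 but without shared exonic bases. Timp2 (ENSMUSG00000017466) lies at chr11:118301069-118355740 on the minus strand. Timp3 (ENSMUSG00000020044) lies at chr10:86300372-86349506 on the plus strand, within the span of the synapsin gene Syn3 on the opposite strand, with which it shares 1733 exonic bases. Adamts9 shares 1381 exonic bases with A730049H05Rik and 424 with Gm15737, both on the opposite strand. How the counting used the strand is not given in the sources used here, so reads from these shared bases are uncertain.

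UMIs totalled 67929614 in the control and 64733724 in the metastatic library. Barcodes with 1000 to 5000 genes and under 20% mitochondrial UMIs numbered 7134 and 6466, with medians of 6273 and 6527 UMIs, and 16 barcodes passed in both libraries. Cells were classed by 2 or more detected markers into general capillary-like (gCap-like) cells, 5020 in the control and 4519 in the metastatic library, aerocyte-like (aCap-like) cells, 1364 and 1086, vein-like cells, 247 and 304, and artery-like cells, 63 and 59. The 5 endothelial genes of the marker list were detected at a mean of 4.57 to 4.72 per cell in the 4 classes of either library. Within a library the UMIs of all cells in a class were added up, and a level is the number of UMIs of a gene per 1000000 UMIs of its class (CPM). Endothelial cells of the 2 libraries are called control and metastatic cells. Markers of other cell types moved as well. Between the control and the metastatic library the summed mesenchymal markers went from 17.3 to 26.4 CPM in gCap-like, from 56.6 to 46.9 in aCap-like, from 7.71 to 49.7 in vein-like and from 105 to 39.1 CPM in artery-like cells, and the platelet markers from 175 to 271 CPM in gCap-like cells. The epithelial markers went from 1632 to 964 CPM in gCap-like cells and from 129 to 3488 CPM in vein-like cells. Cells with 2 or more mesenchymal markers numbered 39 and 42 in gCap-like, 13 and 15 in aCap-like, 1 and 3 in vein-like and 3 and 1 in artery-like cells. The part of these cells in the results was not tested beyond the repeats without them given below.

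Each group held 1 library, so there is no test of a difference between the groups. Levels carry exact Poisson intervals, ratios exact conditional binomial intervals and shares exact Clopper-Pearson intervals, all at 95%. They cover counting error only and no variation among mice, and an interval that excludes 0 describes these 2 libraries. The intervals of levels and ratios treat each UMI as independent, so the uneven spread of UMIs over cells is not covered either. The 3-prime libraries tag 1 end of each molecule, so CPM were not divided by gene length, and levels of different genes are compared per molecule captured.

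In gCap-like cells, all 4 proteases and the inhibitor Timp1 were higher in the metastatic library, Timp2 was nearly level and Timp3 was lower. Among the 11220 genes with at least 100 UMIs over both libraries in these cells, 8.29% were past 1.3-fold higher and 4.6% past 1.3-fold lower, with a median log2 ratio of 0.02. The members with as many UMIs numbered 6, of which 4 were past 1.3-fold higher and 0 past 1.3-fold lower, with a median log2 ratio of 0.51. The members were chosen with earlier results of these data known, so this count beside the background is not independent evidence. Adamts4, with 85 UMIs in all, was under that minimum. Adamts9 is among the genes the study chose as markers of a reactive capillary state on data that include these libraries, so its direction here is not independent evidence.

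**Figure D1:**
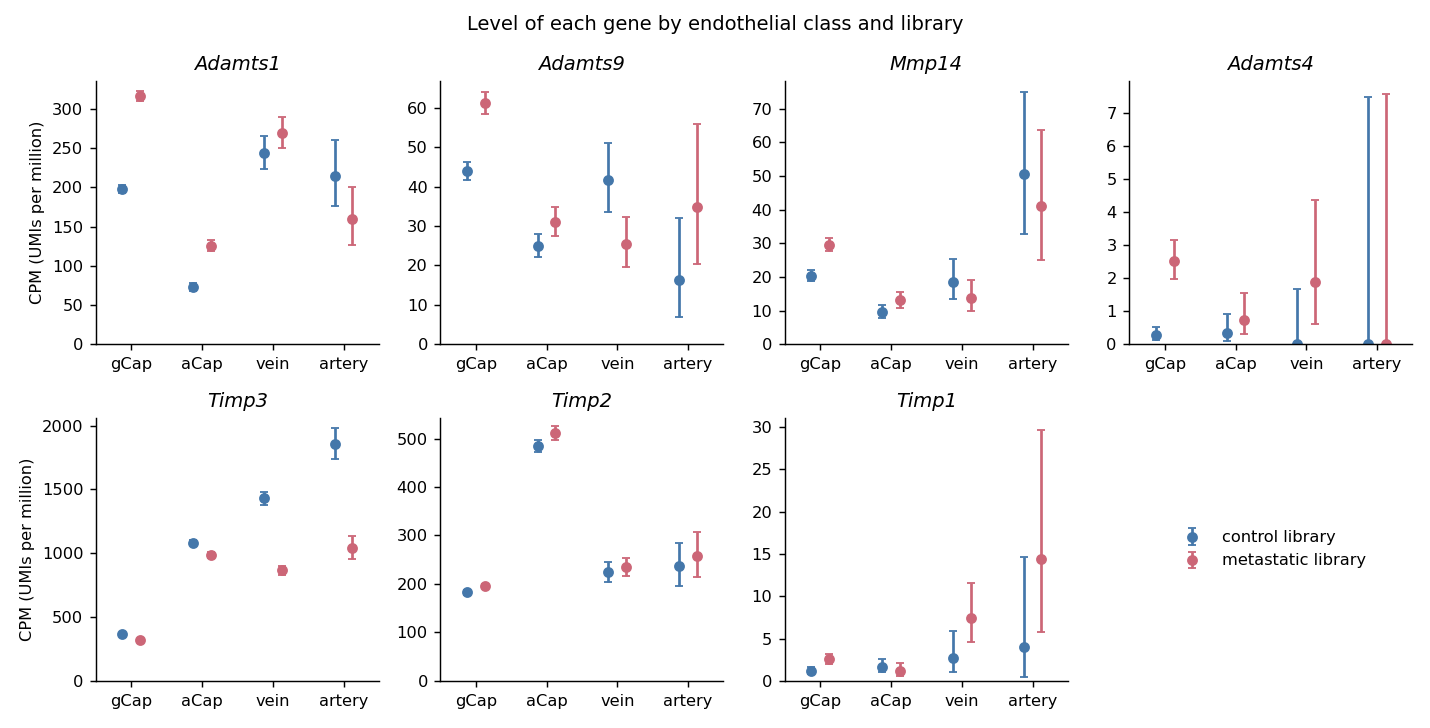
Levels in CPM (linear axes from 0) of the 7 genes in gCap-like, aCap-like, vein-like and artery-like cells, with 1 point for the control library and 1 for the metastatic library and exact 95% Poisson intervals that cover counting error only. Adamts1 stands at 198 and 317 CPM in gCap-like cells, and Timp3 at 1429 and 866 CPM in vein-like cells.

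Adamts1, an ADAMTS protease that cuts versican and binds vascular endothelial growth factor, was the most abundant of the 3 ADAMTS members in every class of both libraries. In gCap-like cells it stood at 198 CPM (6369 UMIs, interval 194 to 203) in control cells and 317 CPM (9590 UMIs, 310 to 323) in metastatic cells. The metastatic level was the higher, the intervals did not overlap, and the log2 ratio was 0.67 (0.63 to 0.72). Of the genes with enough UMIs, 2.35% had a higher ratio. In aCap-like cells Adamts1 was lower in both libraries, at 72.7 CPM (67.8 to 77.8) in control and 126 CPM (119 to 133) in metastatic cells, and the log2 ratio was 0.79 (0.66 to 0.92). The capillary classes thus showed ratios of similar size on different levels. In vein-like cells the levels were 244 CPM (224 to 265) and 269 CPM (250 to 290), with a log2 ratio of 0.14 (-0.02 to 0.31), which became -0.23 when each cell was thinned to 2000 UMIs. In artery-like cells they were 215 CPM (176 to 260) and 160 CPM (127 to 200), with a log2 ratio of -0.42 (-0.86 to 0.01). That ratio became 0.24 without the cells that held markers of other cell types. A single control cell held 31 of the 106 Adamts1 UMIs of its class, and without the cell with the most in each library the ratio was -0.08. The intervals of the 2 libraries overlapped in both large-vessel classes, and a direction was not detectable there at this depth.

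Adamts1 was also found in more cells. After each cell was thinned to 2000 UMIs, 24.4% (23.2 to 25.6) of 4947 gCap-like control cells and 34.6% (33.2 to 36.0) of 4461 metastatic cells held an Adamts1 UMI, against 44.3% and 56.5% of the unthinned cells. In lymphoid cells, which served as the level that free RNA gives, thinned shares were 3.17% of 63 control and 1.72% of 58 metastatic cells, at median depths of 4770 and 4834 UMIs before thinning, against 5951 and 6275 in gCap-like cells. Thinned gCap-like cells with 3 or 4 Adamts1 UMIs formed 2.75% (2.31 to 3.24) of the control and 5.11% (4.48 to 5.80) of the metastatic library, and cells with 5 or more formed 0.667% and 1.28%. The higher level was therefore spread over cells with 1 UMI as well as those with several, and the tenth of the unthinned gCap-like cells with the most Adamts1 held 53.9% of its UMIs in the control and 47.9% in the metastatic library. In order of level within the control library, vein-like, artery-like and gCap-like cells did not differ beyond counting error (log2 ratios between neighbours of 0.18 and 0.12, with intervals that include 0). The artery-like level in that order includes the 31 UMIs of 1 cell. The aCap-like cells were below gCap-like cells by 1.45 (1.34 to 1.56) on the log2 scale. In the metastatic library gCap-like cells came first.

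Adamts9, a large ADAMTS protease of microvascular endothelium that also cuts versican, was next. In gCap-like cells it stood at 44.0 CPM (1414 UMIs, 41.8 to 46.4) in control and 61.1 CPM (1852 UMIs, 58.4 to 63.99) in metastatic cells. The metastatic level was the higher and the log2 ratio was 0.47 (0.37 to 0.57). In aCap-like cells the levels were 24.99 CPM (22.2 to 28.1) and 31.0 CPM (27.5 to 34.8), with a log2 ratio of 0.31 (0.07 to 0.55). In vein-like cells the order was the opposite. There Adamts9 stood at 41.7 CPM (92 UMIs, 33.6 to 51.2) in control and 25.4 CPM (68 UMIs, 19.7 to 32.2) in metastatic cells, a log2 ratio of -0.71 (-1.19 to -0.25) that ranged from -0.84 to -0.47 over 15 other settings. Artery-like cells held 8 and 17 Adamts9 UMIs, too few for a direction (log2 ratio 1.11, -0.18 to 2.53). In control cells gCap-like and vein-like levels of Adamts9 did not differ beyond counting error, whereas in the metastatic library gCap-like cells held the most, and the other classes did not differ from their neighbours in order beyond counting error. The long noncoding 9530026P05Rik, which overlaps the start of Adamts9 on the opposite strand without shared exons, went from 31.1 to 23.3 CPM in gCap-like cells, and A730049H05Rik, which shares exons, from 29 to 74 UMIs.

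Mmp14 was scarcer than Adamts9 in capillary cells. In gCap-like cells it stood at 20.3 CPM (653 UMIs, 18.8 to 22.0) in control and 29.6 CPM (897 UMIs, 27.7 to 31.6) in metastatic cells, and the log2 ratio was 0.54 (0.39 to 0.69). In aCap-like cells it stood at 9.62 CPM (109 UMIs) and 13.0 CPM (122 UMIs), a log2 ratio of 0.43 (0.05 to 0.82) that turned to -0.21 when cells were thinned, so the direction in aerocyte-like cells is uncertain. Vein-like cells held 41 and 37 UMIs of Mmp14 and artery-like cells 25 and 20, with intervals of the ratio that include 0. Artery-like cells had the highest level of Mmp14 in the control library, 50.7 CPM, above gCap-like cells by 1.32 (0.68 to 1.89) on the log2 scale, and the mesenchymal markers were also highest in that class, at 105 CPM.

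Adamts4, an ADAMTS protease known for cutting aggrecan in inflamed joints, was rare. In gCap-like cells the control library held 9 UMIs in 8 cells (0.28 CPM, 0.13 to 0.53) and the metastatic library 76 UMIs in 37 cells (2.51 CPM, 1.98 to 3.14). The metastatic level was the higher and the log2 ratio was 3.16 (2.16 to 4.34). A single metastatic cell held 15 of the 76 UMIs, and without the cell with the most Adamts4 in each library the ratio was 3.21. In aCap-like cells there were 4 and 7 UMIs (log2 ratio 1.08, -0.90 to 3.30). Vein-like cells held 0 and 5 (an interval that includes no change, with a lower bound of -0.40). Artery-like cells held 0 and 0, which allows up to 7.48 and 7.58 CPM. Lymphoid cells held 0 Adamts4 UMIs in either library, which allows up to 11.2 and 11.7 CPM.

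The few cells with Adamts4 were described further, a choice made after their values were seen. Of the 37 gCap-like metastatic cells with Adamts4, 36 held at least 2 of the endothelial genes Cdh5, Cldn5 and Tie1, and 1 held 2 or more mesenchymal markers. These cells had a median of 9179 UMIs, against 6257 in the 4482 gCap-like metastatic cells without it, so every share in them is raised by depth. Per UMI, the cells with Adamts4 held 594 CPM of Adamts1 against 313 in those without, 149 against 60.1 CPM of Adamts9, 115 against 28.6 CPM of Mmp14 and 983 against 313 CPM of Timp3, while Timp2 stood at 113 against 197 CPM. Inhbb, the activin beta B subunit and one of the reactive genes of the study, stood at 375 against 28.3 CPM, and Bcl3, a regulator of NF-kB, at 175 against 42.0 CPM. The other reactive genes differed less. Pim3 stood at 338 against 258 CPM, Osmr at 124 against 80.9 CPM and Scarb1 at 169 against 153 CPM. Tmem252 went the other way, at 186 against 199 CPM. Sele, the endothelial selectin that captures leukocytes and a gene looked up after the values were known, stood at 192 CPM (68 UMIs in 6 cells) against 6.68 CPM (200 UMIs in 32 cells). The cells with Adamts4 were thus also high in the other proteases and in Timp3. The 8 control cells with Adamts4 held 220 CPM of Adamts1, 62.9 CPM of Adamts9 and 1322 CPM of Timp3.

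Timp3 was the most abundant inhibitor in every class and was lower in the metastatic library in all 4 classes, although in artery-like cells the direction was lost when classes were set on thinned cells. In gCap-like cells it stood at 370 CPM (11892 UMIs, 364 to 377) in control and 321 CPM (9730 UMIs, 315 to 328) in metastatic cells. The intervals did not overlap, and the log2 ratio was -0.21 (-0.24 to -0.17), within 1.3-fold. In aCap-like cells it stood at 1083 CPM (1064 to 1102) and 985 CPM (965 to 1006), a log2 ratio of -0.14 (-0.17 to -0.10). The large vessels, where Timp3 was most abundant in the control library, differed more. In vein-like cells it stood at 1429 CPM (3153 UMIs, 1380 to 1480) and 866 CPM (2316 UMIs, 831 to 902), with a log2 ratio of -0.72 (-0.80 to -0.65) that lay between -0.79 and -0.65 over 15 other settings. The myeloid markers of vein-like cells went from 31.7 to 614 CPM and the epithelial markers from 129 to 3488 CPM, and without cells that held markers of other cell types the vein-like ratios were -0.79 for Timp3 and -0.62 for Adamts9. In artery-like cells Timp3 stood at 1854 CPM (914 UMIs, 1735 to 1978) and 1040 CPM (506 UMIs, 952 to 1135), with a log2 ratio of -0.83 (-0.99 to -0.68). That value was -0.59 without cells that held markers of other cell types and 0.02 when the classes were assigned on thinned cells, which left 20 control and 17 metastatic artery-like cells, so the artery value rests on how the class is drawn. Other markers of artery-like cells differed as well between the control and the metastatic library. The artery marker Gja5 stood at 158 and 59.6 CPM, the lymphatic markers Ccl21a at 0 and 1322 CPM, Mmrn1 at 0 and 117 CPM and Prox1 at 2.03 and 24.7 CPM, the myeloid markers at 26.4 and 275 CPM and the platelet markers at 14.2 and 148 CPM. Without the cells that held 2 or more lymphatic markers, a choice made after the data were seen that left 63 control and 57 metastatic cells, the log2 ratio of Timp3 in artery-like cells was -0.92.

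**Figure D2:**
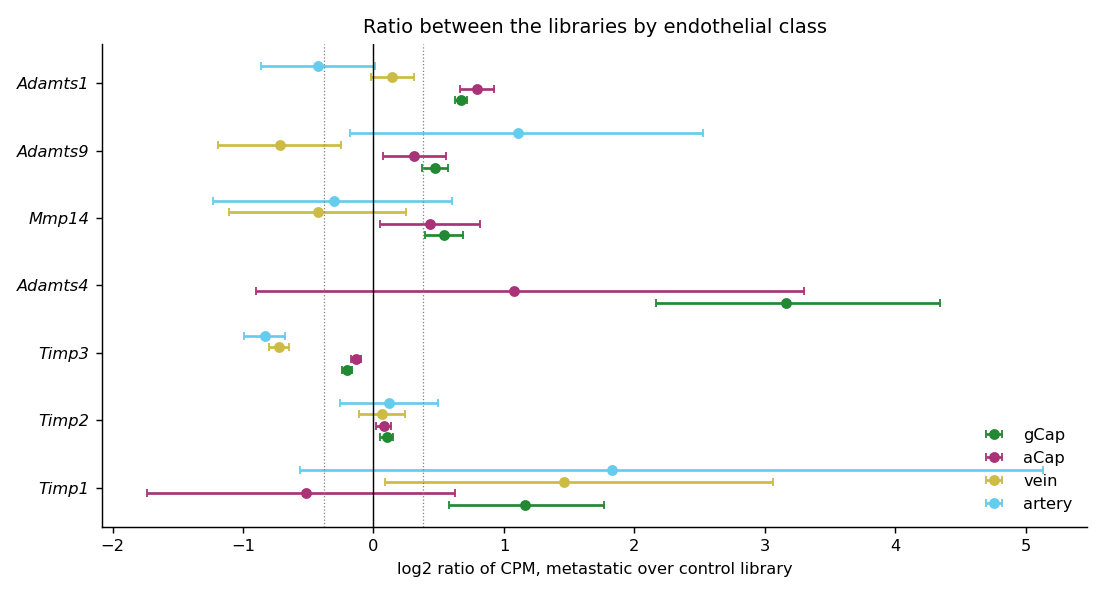
Log2 ratio of the CPM of the metastatic library to that of the control library for each gene in each class (points) with exact 95% intervals of counting error; solid line at 0, dotted lines at 1.3-fold, and ratios without a finite interval left out. The points of Timp3 lie left of 0 in all 4 classes, from -0.14 to -0.83, of which the artery-like one is at 0.02 with classes set on thinned cells, and those of Adamts1 at 0.67 and 0.79 in the capillary classes.

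The background shares differed by class, and the limit set by the choice of members holds here too. In aCap-like cells 7.07% of 9504 genes were past 1.3-fold higher and 3.68% past 1.3-fold lower, and of the 5 members with enough UMIs 2 were higher and 0 lower. In vein-like cells 8.99% of 6260 genes were higher and 7.25% lower, and of 4 members 0 were higher and 2 lower. In artery-like cells 12.5% of 1827 genes were higher and 10.7% lower, and of 3 members 0 were higher and 2 lower. In vein-like cells 0.927% of genes had a lower ratio than Timp3 and 0.99% a lower ratio than Adamts9.

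The spread of Timp3 over gCap-like cells also differed between the libraries. After thinning to 2000 UMIs, cells with a Timp3 UMI formed 42.4% (41.0 to 43.8) of the control and 33.2% (31.8 to 34.6) of the metastatic library, against 68.7% and 58.4% of unthinned cells and thinned shares of 1.59% and 1.72% in lymphoid cells. Cells with 1 UMI went from 25.5% to 20.4%, cells with 2 from 10.3% to 7.02% and cells with 3 or 4 from 5.30% to 4.19%. Cells with 5 or more did not follow, at 1.27% (0.98 to 1.63) of the control and 1.59% (1.25 to 2.00) of the metastatic cells, and they held 11.3% and 20.2% of the thinned Timp3 UMIs. In unthinned cells the metastatic library held 1 gCap-like cell with 251 Timp3 UMIs, whereas the highest control cell held 45. Without the cell with the most Timp3 in each library the log2 ratio was -0.24.

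Among unthinned gCap-like cells, 23 control and 38 metastatic cells held 20 or more Timp3 UMIs, a limit set after the values were seen. They were deeper than the other gCap-like cells, with medians of 10232 against 5937 UMIs in the control library. In the metastatic library the medians were 9576 against 6243 UMIs. In the metastatic library those 38 cells had 212 CPM of Adamts9, 420 CPM of Adamts1 and 313 CPM of Sele, against 59.1, 315 and 4.82 CPM in the other 4481 cells. In the control library the 23 cells had 41.0 CPM of Adamts9 and 0 Sele UMIs, and 12 of the 23 also held 1 artery marker, against 5 of the 38 metastatic cells. Of these cells 1 in each library held 2 or more mesenchymal markers, 1 control and 9 metastatic cells held 2 or more platelet markers, and 5 control and 2 metastatic cells held 2 or more epithelial markers. Among the other gCap-like cells, platelet markers were held by 331 of 4997 control and 472 of 4481 metastatic cells. The part of these markers in the contrast was not tested. Summed over cells with this much Timp3, Adamts9 and Sele were thus high in the metastatic library, and Adamts9 was not high in the control. How many of the 38 cells held Sele was not counted. In the control Sele was rare, with 12 UMIs in 3 of the 5012 gCap-like cells without Adamts4. The 0 Sele UMIs in 23 control cells therefore do not set the libraries apart. The difference in the share with an artery marker was not tested.

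**Figure D3:**
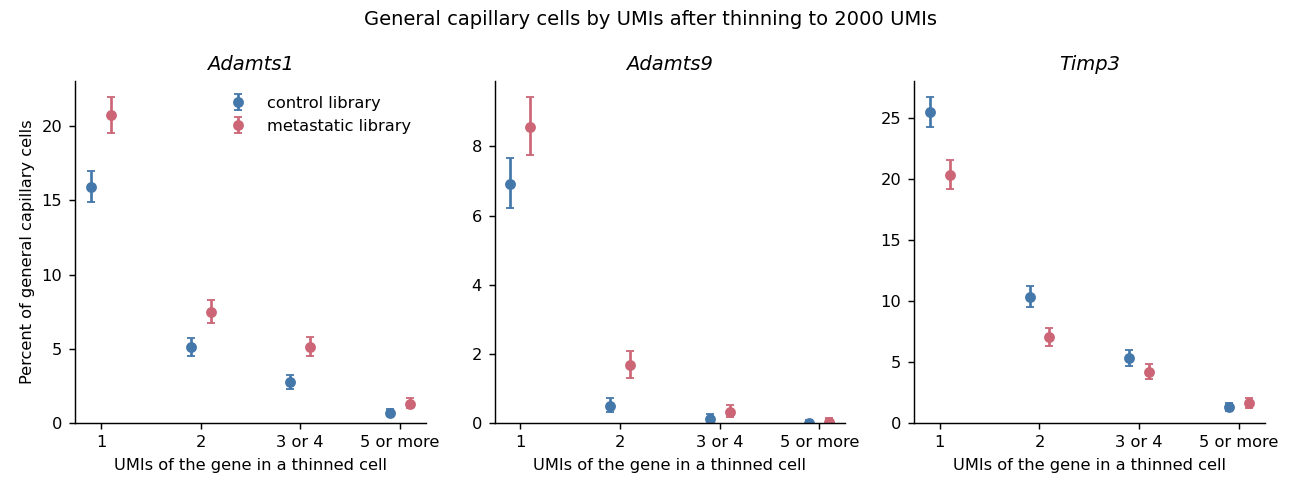
Percent of gCap-like cells (linear axes from 0) with 1, 2, 3 or 4, and 5 or more UMIs of Adamts1, Adamts9 or Timp3 after each cell was thinned to 2000 UMIs, for the control (4947 cells) and the metastatic library (4461 cells), with exact 95% binomial intervals. For Timp3 the metastatic points lie below the control points up to 4 UMIs and not at 5 or more, at 1.27% and 1.59%.

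Syn3, which spans Timp3 on the opposite strand, moved with it. Its profile over the 8 sums of 4 classes in 2 libraries had the highest correlation with that of Timp3 among 10815 genes (Pearson r = 0.97, a description across sums that share libraries). Syn3 stood at 4.55 to 7.00 UMIs per 100 Timp3 UMIs in the 8 sums. In gCap-like cells the value was 6.52 (6.05 to 7.01) in the control and 7.00 (6.47 to 7.57) in the metastatic library. Whether Syn3 UMIs arose from Timp3 transcripts was not tested.

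Timp2 was nearly level. In gCap-like cells it stood at 183 CPM (5864 UMIs, 178 to 187) and 196 CPM (5929 UMIs, 191 to 201), with a log2 ratio of 0.10 (0.05 to 0.15), and 32.8% of genes had a higher ratio. In aCap-like cells, where it was most abundant, it stood at 484 CPM (471 to 497) and 511 CPM (496 to 526), with a log2 ratio of 0.08 (0.02 to 0.13). The ratios in vein-like cells, 0.06 (-0.11 to 0.24), and in artery-like cells, 0.12 (-0.26 to 0.49), had intervals that include 0, and changed sign in 1 and 2 of 15 other settings. Aerocyte-like cells exceeded artery-like cells, the next class, by 1.03 (0.76 to 1.31) on the log2 scale in the control and 0.99 (0.73 to 1.26) in the metastatic library. Timp2 was thus highest in aCap-like cells in both libraries, whereas Adamts1 was lowest in that class. It was not confined to them. Among unthinned control cells Timp2 was found in 88.6% of aCap-like, 78.9% of vein-like, 69.8% of artery-like and 61.7% of gCap-like cells.

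Timp1, the inducible inhibitor of the family, was rare in lung endothelium. In gCap-like cells the control library held 37 UMIs in 23 cells (1.15 CPM, 0.81 to 1.59) and the metastatic library 78 UMIs in 71 cells (2.58 CPM, 2.03 to 3.21). The metastatic level was the higher, with a log2 ratio of 1.16 (0.58 to 1.77), and 13 of the control UMIs came from 1 cell. Without the cell with the most Timp1 in each library the ratio was 1.75, and it was 2.21 on thinned cells. In vein-like cells the UMIs numbered 6 and 20 (log2 ratio 1.46, 0.09 to 3.06), in artery-like cells 2 and 7 (1.83, -0.57 to 5.13) and in aCap-like cells 19 and 11 (-0.52, -1.74 to 0.63). Lymphoid cells held 0 Timp1 UMIs in both libraries, which allows up to 11.2 and 11.7 CPM, a limit above the levels of gCap-like cells. The 71 metastatic gCap-like cells with Timp1 had a median of 7150 UMIs against 6246 in the others, and held 92.8 against 60.5 CPM of Adamts9, 61.3 against 29.0 CPM of Mmp14 and 128 against 30.5 CPM of Inhbb.

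**Figure D4:**
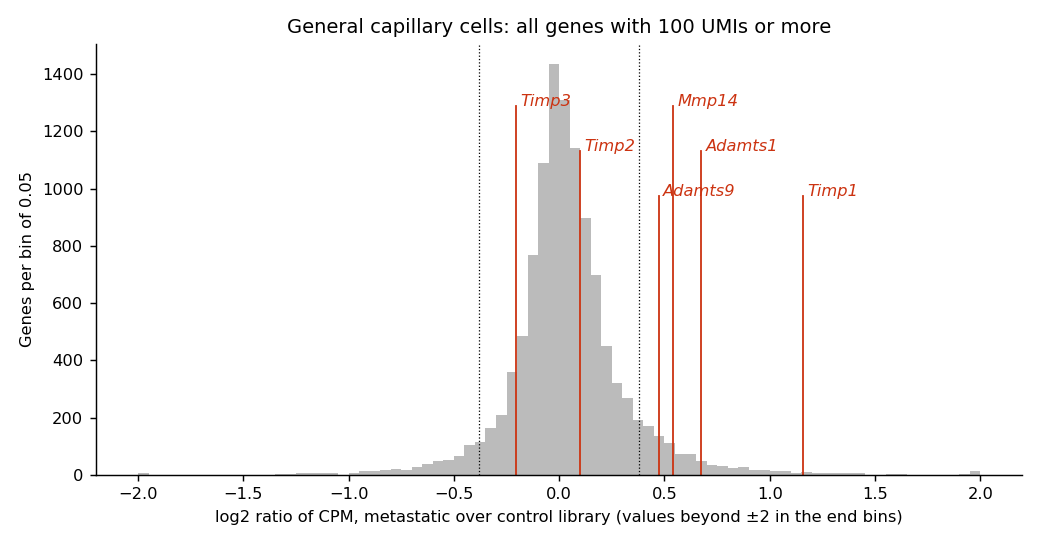
Distribution of the log2 ratio of the metastatic to the control library in gCap-like cells over the 11220 genes with 100 UMIs or more (grey bars, genes per bin of 0.05, values beyond 2 in either direction in the end bins), with the 6 members that reach that minimum marked in red and 1.3-fold as dotted lines. Timp1 (1.16), Adamts1 (0.67), Mmp14 (0.54) and Adamts9 (0.47) lie right of the dotted line, and Timp2 (0.10) and Timp3 (-0.21) between the lines.

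The ratio of Adamts1 to Timp3 transcripts was higher in the metastatic library in gCap-like, aCap-like and vein-like cells. Adamts1 UMIs per 100 Timp3 UMIs were 53.6 (51.9 to 55.2) in control and 98.6 (95.8 to 101) in metastatic gCap-like cells. They were 6.71 (6.25 to 7.20) and 12.8 (12.0 to 13.6) in aCap-like cells and 17.1 (15.5 to 18.7) and 31.1 (28.6 to 33.9) in vein-like cells. In artery-like cells they were 11.6 (9.39 to 14.2) and 15.4 (12.0 to 19.6), with overlapping intervals. The 3 ADAMTS genes together stood at 243 and 380 CPM in gCap-like cells and the 3 TIMP genes at 554 and 520 CPM. Timp3 made up 66.8% and 61.8% of the TIMP UMIs in gCap-like cells, and 86.3% and 78.1% in vein-like cells. The ratio of Adamts1 to Timp3 thus differed more between gCap-like and aCap-like cells of 1 library than between the libraries. These are transcript counts, and neither protein nor activity was measured.

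Levels of the members were also compared among gCap-like cells. Cells were thinned to 2000 UMIs and split by 3 gene lists: immediate early genes (transcription factors and phosphatases switched on within minutes of stress, including tissue digestion), the 6 reactive genes Inhbb, Bcl3, Pim3, Osmr, Tmem252 and Scarb1 that the study chose on data including these libraries, and 6 interferon genes. The 25% of cells with the most immediate early UMIs were set against the 25% with the fewest, and cells with 2 or more genes of the other lists against cells with 0.

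Adamts1 followed the immediate early genes. In the control library it stood at 74.4 CPM in the cells with the fewest and 311 CPM in those with the most, a log2 ratio of 2.06 (1.83 to 2.30), and in the metastatic library at 150 and 434 CPM, a log2 ratio of 1.53 (1.35 to 1.71). The metastatic library was the higher at both ends, by 1.01 (0.75 to 1.28) on the log2 scale in the cells with the fewest and 0.48 (0.35 to 0.62) in those with the most. The summed immediate early genes themselves stood at 12562 CPM in control and 12791 CPM in metastatic gCap-like cells. They stood at 8968 and 9459 CPM in aCap-like cells, where Adamts1 was lowest, and at 8605 and 6824 CPM in artery-like cells, where it was not. Their part in the level of Adamts1 by class was not tested. Adamts9 showed intervals that include 0 in this split in both libraries (log2 ratios of 0.38 and 0.31 from the fewest to the most).

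Adamts9 was higher in metastatic cells with 2 or more reactive genes than in those with 0. It stood at 38.8 CPM in control cells with 0 reactive genes and 49.5 CPM in those with 2 or more, a log2 ratio of 0.35 (-0.02 to 0.72). In metastatic cells it stood at 47.2 and 109 CPM, a log2 ratio of 1.21 (0.92 to 1.51), and whether the 2 libraries differ in this was not tested. Between the libraries the log2 ratio was 1.14 (0.81 to 1.49) in cells with 2 or more reactive genes and 0.28 (-0.05 to 0.62) in cells with 0. Adamts1 between the libraries was 0.78 (0.61 to 0.96) and 0.55 (0.40 to 0.69) in the same sets of cells. The study chose Adamts9 and the reactive genes as markers of the same capillary state, on data that include these libraries. The values of Adamts9 in this split, within and between the libraries, are therefore not independent evidence. Of the thinned metastatic Adamts4 UMIs, 12 lay in the 1107 cells with 2 or more reactive genes and 1 in the 1685 with 0. The rest lay in cells with exactly 1 of these genes. All these UMIs came from only 13 of the 4461 thinned cells, and 1 cell held 5 of them.

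Timp3 went the other way between the libraries. In cells with 0 reactive genes it stood at 366 CPM in control and 276 CPM in metastatic cells, a log2 ratio of -0.41 (-0.53 to -0.29), and in cells with 2 or more at 375 and 356 CPM, a log2 ratio of -0.07 (-0.22 to 0.07). The interval excluded 0 in the cells with 0 reactive genes and included it in the others, and the difference between these sets was not tested. In the interferon split the cells with interferon genes stood at 334 and 237 CPM (log2 ratio -0.50, -0.70 to -0.30), against 364 and 335 CPM (-0.12, -0.21 to -0.03) in those with 0. In the split by immediate early UMIs Timp3 was lower in the metastatic library at both ends, by log2 ratios of -0.52 (-0.67 to -0.37) in the 25% with the fewest and -0.25 (-0.40 to -0.09) in the 25% with the most. Timp2 stayed between 169 and 212 CPM in every set of cells of the 3 splits, and Mmp14 between 18.3 and 34.0 CPM.

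**Figure D5:**
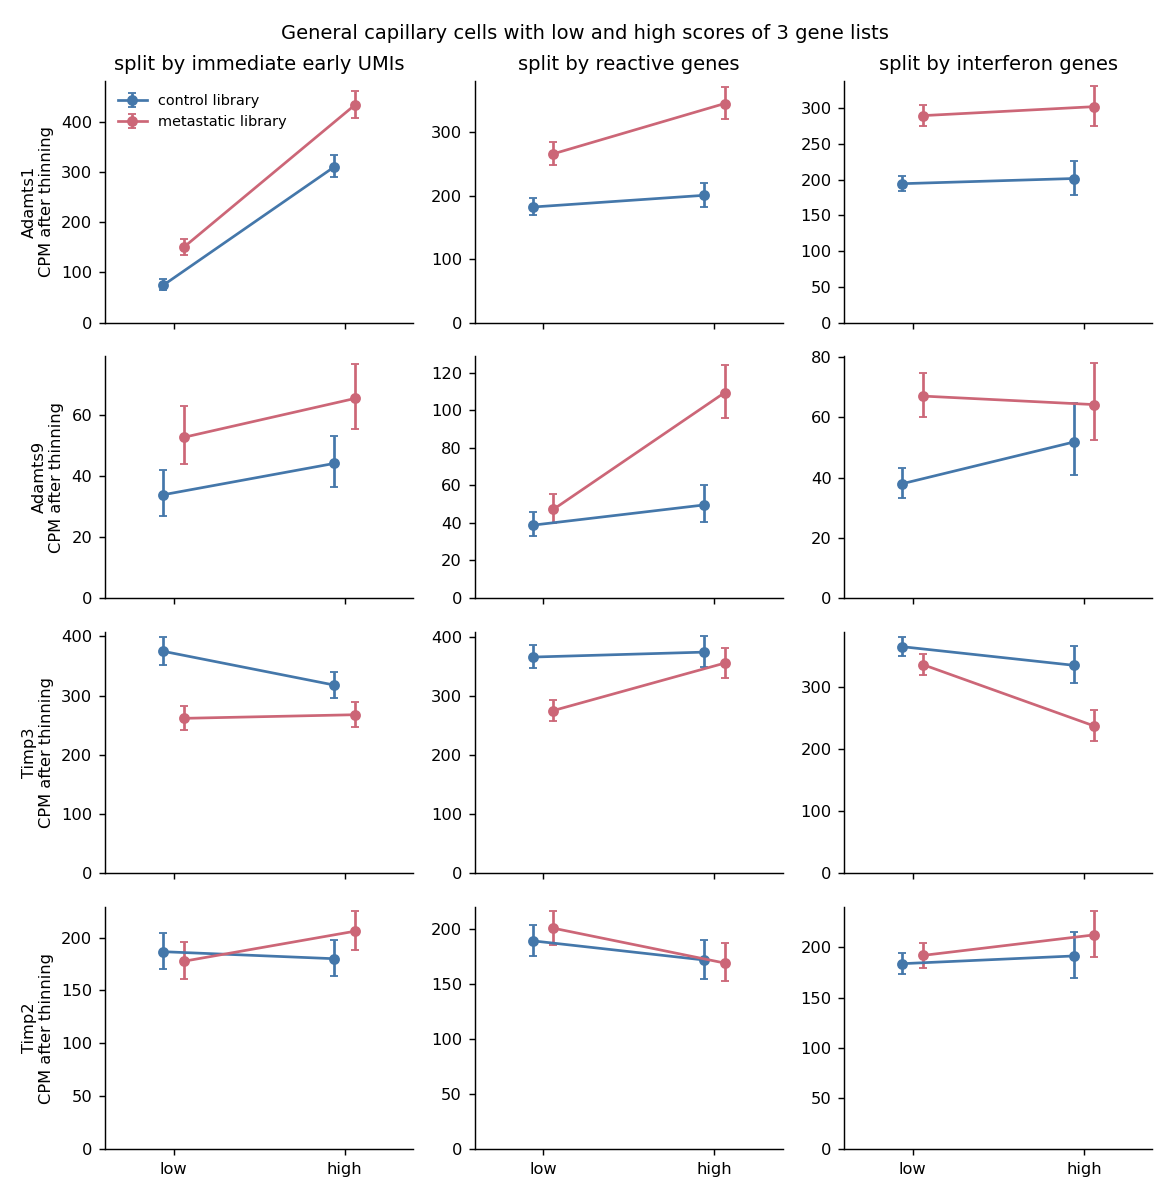
CPM (linear axes from 0) of Adamts1, Adamts9, Timp3 and Timp2 in thinned gCap-like cells of the control and the metastatic library, split by immediate early UMIs (25% of cells with the fewest and with the most), reactive genes and interferon genes (0 against 2 or more), with exact 95% Poisson intervals. Adamts1 climbs from 74.4 to 311 CPM with immediate early UMIs in the control, and Adamts9 from 47.2 to 109 CPM with reactive genes in the metastatic library.

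Detection of the proteases in the same thinned gCap-like cells also differed. Adamts1 and Adamts9 were found together in 73 control cells, where independent detection would give 90.8, and in 202 metastatic cells, where it would give 163. Adamts1 and Timp3 were found together in 511 control and 504 metastatic cells, against 513 and 512 from independent detection. Adamts9 and Mmp14 were found together in 19 and 39 cells, against 14.9 and 25.6. Timp3 was found with Adamts9 in 162 and 183 cells, against 158 and 156, and with Mmp14 in 82 and 101, against 84.0 and 80.3. Not every pair of proteases exceeded independence in the metastatic library. Adamts1 and Mmp14 were found together in 46 and 88 cells, against 48.3 and 83.8. Adamts9 and Timp2 were found together in 113 and 122 cells, against 112 and 149. These are counts within 1 library each, with no test.

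The promoters of Adamts1 and Timp3, the most abundant protease and inhibitor, are shown because the 2 genes differed in opposite directions. Both are RefSeq windows on GRCm38.p6 from 250 bases before to 50 bases after the gene start, in the direction of transcription, with matches to any of 5 motifs in capitals.
Adamts1, chr16:85803064-85803363, minus strand: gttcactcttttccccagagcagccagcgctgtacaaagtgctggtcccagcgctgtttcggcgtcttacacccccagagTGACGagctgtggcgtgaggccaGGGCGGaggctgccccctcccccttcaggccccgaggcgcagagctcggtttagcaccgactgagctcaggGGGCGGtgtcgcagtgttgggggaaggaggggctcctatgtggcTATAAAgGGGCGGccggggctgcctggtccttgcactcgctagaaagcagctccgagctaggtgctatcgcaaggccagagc
Timp3, chr10:86300162-86300461, plus strand: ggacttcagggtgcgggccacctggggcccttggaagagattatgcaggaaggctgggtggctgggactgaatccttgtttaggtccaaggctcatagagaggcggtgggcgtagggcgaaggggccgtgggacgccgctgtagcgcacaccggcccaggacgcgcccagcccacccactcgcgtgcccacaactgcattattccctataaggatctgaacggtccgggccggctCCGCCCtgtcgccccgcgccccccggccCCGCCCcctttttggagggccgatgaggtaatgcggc
The motifs, searched on both strands, were the TATA box TATAAA, the AP-1 site TGANTCA, the CRE core TGACG, an NF-kB site (GGG, 2 bases of any kind, then TTTCC) and the GC box GGGCGG. Adamts1 held a TATA box 32 bases before the start, a CRE core 170 bases before it and GC boxes, whereas Timp3 held GC boxes only. Of 32851 promoters of this length, 13.6% held the TATA box, 20.8% the CRE core and 35.7% the GC box. CRE cores were also in the windows of Adamts9 and Timp1, and the AP-1 and NF-kB letters, found in 7.81% and 1.63% of promoters, were in none of the windows of 6 members. A match of letters is a description and not a site that was shown to be bound.

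The wider protease family was read from a list of 71 genes, also chosen with earlier results of these data known. Of the list, 64 had UMIs in gCap-like cells and 25 at least 100 over both libraries. Of these 25, 5 were past 1.3-fold higher and 2 past 1.3-fold lower, with a median log2 ratio of 0.10, against 8.29% and 4.6% of all genes. Mmp15, a membrane-bound matrix metalloproteinase and close relative of Mmp14, stood at 36.0 CPM in control and 55.5 CPM in metastatic cells, a log2 ratio of 0.62 (0.51 to 0.73). The same gene was higher in aCap-like cells (18.01 and 29.9 CPM) and vein-like cells (19.9 and 33.6 CPM). Sdc4, a heparan sulfate proteoglycan of the cell surface, stood at 30.6 and 50.6 CPM, a log2 ratio of 0.73 (0.61 to 0.85). Adamtsl2, a relative of the ADAMTS family without protease activity, had 52 and 103 UMIs, with a log2 ratio of 1.07 (0.58 to 1.58). Adam19, a membrane protease, had a log2 ratio of 0.64 (0.21 to 1.08) and Adamts6 of 0.47 (0.07 to 0.87), each from 76 to 124 UMIs per library. Lower were Reck, a membrane-anchored inhibitor of matrix metalloproteinases, with 92 and 60 UMIs (log2 ratio -0.53, -1.03 to -0.05), and Adamtsl4, with 242 and 172 UMIs (-0.41, -0.70 to -0.12).

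The most abundant genes of the list differed little. Bsg, which induces matrix metalloproteinases in neighbouring cells, stood at 215 and 212 CPM, and the membrane proteases Adam15 and Adam10, which shed surface proteins, at 148 and 152 and at 90.7 and 93.4 CPM. Furin, a convertase that cuts off the propeptides of ADAMTS enzymes and of Mmp14, stood at 73.2 and 84.2 CPM (log2 ratio 0.20, 0.12 to 0.28). Nid1, a basement membrane protein that Adamts1 can cut, stood at 68.3 and 87.6 CPM (0.36, 0.28 to 0.44). Vcan, the versican that these enzymes are known to cut, had 44 and 45 UMIs in gCap-like cells, and the aggrecan gene Acan had 0 in either library. The remaining family member Timp4 stood at 3.33 and 3.57 CPM (0.10, -0.30 to 0.50). Of the secreted gelatinases, Mmp2 had 36 and 29 UMIs and Mmp9 10 and 4. Vcan, Acan, Timp4, Mmp2 and Mmp9 are named outside the rule for named genes, as known substrates and partners of the members, with their values already seen.

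In aCap-like cells 19 genes of the list had enough UMIs, of which 4 were past 1.3-fold higher and 0 lower, against 7.07% and 3.68% of all genes, and in vein-like cells 13, of which 4 were higher and 0 lower, against 8.99% and 7.25%. Cd44, the hyaluronan receptor, was among them in both classes, at 5.03 and 12.1 CPM in aCap-like cells and 25.4 and 89.3 CPM in vein-like cells. These values moved with the cells that held markers of other cell types. Without them, a repeat added after the data were seen, the log2 ratio of Cd44 was 0.19 in place of 1.27 in aCap-like cells and 0.82 in place of 1.82 in vein-like cells, where the myeloid markers stood at 31.7 and 614 CPM. Thbs1, the matrix protein thrombospondin 1, stood at 8.48 and 13.5 CPM in aCap-like cells (log2 ratio 0.67, 0.28 to 1.07).

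The genes whose profile over the 8 sums was most like that of a member are given as a description, since the sums share 2 libraries. For Adamts1 they were H3f3b (r = 0.98) and Btg1 (0.95), for Timp2 Sppl2a, Tmem47 and Ccdc88a (each 0.99), and for Mmp14 Mcam (0.98), Osmr and Ripor2 (each 0.97). For Adamts9 they were Evi5 (0.96), H2-Q10 and Mrvi1 (each 0.95), for Timp1 Atp5d, Nedd9 (each 0.98) and Tmem147 (0.97), and for Timp3, after Syn3, Bbs5 (0.94) and Cyfip1 (0.93). Between members the lowest value was that of Adamts1 with Timp2 (r = -0.85), which had their lowest and highest levels in aCap-like cells.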

How the data were processed

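Single-cell 3-prime libraries of PECAM1-sorted lung cells were examined, 1 control and 1 metastatic. The deposited matrices hold unnormalized counts of UMIs for every gene in every barcode, which the authors made with Cell Ranger on mm10; the file headers name version 3.1.0. The annotation release is not given in the sources used here. Positions, transcripts and coding lengths came from GENCODE M21 (GRCm38), and promoters from RefSeq (GRCm38.p6), which matched 6 of the 7 members. The members, marker lists and pathway list were chosen with earlier results of these data known.

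Barcodes with 1000 to 5000 genes and under 20% mitochondrial UMIs were kept. The mitochondrial filter removed 2 control and 0 metastatic barcodes. Cells were classed by UMIs of 2 or more markers: Ednrb, Fibin and Tbx2 for aerocyte-like, Slc6a2, Car8 and Bst1 for vein-like, Gja5, Bmx and Fbln5 for artery-like, and, in cells of none of these classes, Gpihbp1, Aplnr, Kit and Lpl for general capillary-like cells. Cells that met several rules (46 and 32) were left out, and cells of no class (394 and 466) are given in the closing section. Lymphoid cells (63 and 59) held 2 or more lymphoid markers and under 2 of Cdh5, Cldn5 and Tie1. Doublets were kept, and leaving out the barcodes with the highest doublet scores, 0.8% per 1000 cells, was an alternative. For shares and splits each cell was thinned at random to 2000 UMIs, which left out 73 control and 58 metastatic gCap-like cells below that depth.

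UMIs were summed per class and library. Genes with at least 100 UMIs over both libraries formed the background, and 1.3-fold was the size counted. All members are named, and of the pathway list the genes past 1.3-fold and the 3 most abundant of each subgroup could be named; exceptions are stated where they occur. Genes of similar profile were the 3 with the highest Pearson r on log2(CPM + 1), among genes with at least 200 UMIs. Some items that these rules would name are not reported here. The intervals were checked on counts drawn with known ratios. Alternatives covered cell filters, class rules, scaling (also TMM, edgeR 4.0.16 in R 4.3.3), weighting and thinning. Python 3.11.15, NumPy 2.4.6, SciPy 1.17.1, pandas 2.3.3 and scikit-learn 1.9.0 were used.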

Additional observations from a re-analysis of the deposited data

Results flagged for a closer look

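Adamts9 differed in direction between classes: its log2 ratio of the metastatic to the control library was 0.47 in gCap-like and 0.31 in aCap-like cells, and -0.71 in vein-like cells, with intervals that exclude 0 in all 3. The difference between the classes was not tested, since each group held 1 library.

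Cells of no class, 394 in the control and 466 in the metastatic library, stood outside the comparisons. There Timp2 stood at 152 against 150 CPM, and the other members were higher in the metastatic library with intervals that exclude 0. The share of all genes that were higher in these cells was not computed, so the members have no background beside them here. Adamts4 stood at 10.9 CPM (27 UMIs in 13 cells) against 0 UMIs, 7.70-fold higher against a floor of 3 UMIs in the control, with an exact lower bound of 5.85-fold, and 12 of the 13 cells held at least 2 of Cdh5, Cldn5 and Tie1. Timp1 stood at 9.29 against 2.83 CPM, Mmp14 at 42.8 against 25.02 CPM, Adamts9 at 36.4 against 19.4 CPM, Adamts1 at 177 against 127 CPM and Timp3 at 547 against 414 CPM. Summed mesenchymal markers in these cells were 76.5 and 235 CPM, and their part in these values was not tested.

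Unclassed cells with at least 2 of the endothelial genes numbered 193 and 257. In them Adamts1 (287 and 306 CPM) and Timp3 (919 and 949 CPM) had ratios with intervals that include 0, while Adamts9 (40.3 and 68.4 CPM), Mmp14 (52.2 and 82.5 CPM) and Adamts4 (0 and 22.8 CPM) were higher in the metastatic library. In the other 201 and 209 unclassed cells Adamts1 stood at 21.2 and 66.6 CPM (log2 ratio 1.65, 1.02 to 2.33) and Timp3 at 80.8 and 204 CPM (1.34, 1.01 to 1.68).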

How the results depend on the processing

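No paired analysis was possible because each group held 1 library. The log2 ratios of the 7 members in gCap-like cells kept their sign in all 105 repeats. In 98 of them the value stayed within the interval of counting error. The others were, on thinned UMIs, 0.61 for Adamts1, 0.65 for Adamts9 and 2.21 for Timp1; without gCap-like cells that held any marker of another class, -0.15 for Timp3 and 0.73 for Mmp14; and for Timp3 -0.25 both with classes set on thinned cells and without cells holding markers of other cell types. Elsewhere the ratio of Timp3 in artery-like cells turned to 0.019 with classes set on thinned cells, and that of Mmp14 in aCap-like cells to -0.21 on thinned UMIs. The cause was not tested. Over the 25 ratios, leaving out doublets, shared barcodes, cells with lymphatic markers or the cell with the most UMIs (the last 2 chosen after seeing the data), TMM scaling and the gene minimum moved none beyond that interval. Counts of genes past the fold depended on the minimum: with 20 UMIs, 20.04% of genes in gCap-like cells were past 1.3-fold, against 12.9% with 100. Depth limits Adamts4 and Timp1 in every class and most members in artery-like cells.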
